A study of Mus musculus with 11 samples.

Results

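The CXCR3 chemokine axis consists of 3 secreted ligands, Cxcl9, Cxcl10 and Cxcl11, and the receptor they share, Cxcr3. Its members were chosen by name, as the probes that the array annotation labels with 1 of these 4 gene names. Each gene had 1 probe, so the axis holds 4 genes of the 27670 named genes or clones on the array. Total RNA of mouse lung was hybridised to 11 one-colour Agilent arrays, which fall into 4 groups. These are 3 Foxa3-/- OVA arrays (Foxa3 knockout, challenged with OVA), 3 wild-type OVA arrays (littermate control, OVA), 2 Foxa3-/- saline arrays and 3 wild-type saline arrays (littermate control, saline). Foxa3 encodes a forkhead transcription factor, and OVA is ovalbumin, an egg protein used as an inhaled allergen. The animals' strain, age and sex, the challenge schedule, the deleted part of Foxa3 and whether it was deleted in all cells are not given in the sources used here. The labels do not say that each array is a separate animal either, so the p-values below measure the spread between these samples, which may be technical.

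Values are scaled log2 intensities, that is, log2 of the background-subtracted spot intensity minus the 75th percentile of the same array. A value of 0 is therefore the brightness of the 75th percentile probe of that array. A difference is on the log2 scale and is followed by ± its standard error. Adjusted p comes from a limma fit of 21874 genes, and a gene with a value under 0.05 counts as called. Every group has 1 array on slide 1 and 1 on slide 2, while no Foxa3-/- saline array lies on slide 3. Between 71.16% and 78.87% of probes were well above background on an array. The leading principal component (46.1% of the variance) placed the OVA arrays between 13.3 and 66.4 and the saline arrays between -58.7 and -44.9. The next one (15.8%) ran from 34.0 to 41.9 on slide 1 and from -28.9 to -16.8 on the other slides, so member values are also given within slides. The third (10.5%) set wild-type OVA 1 apart at -67.0.

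The Foxa3 probe was not well above background on any Foxa3-/- array and was well above it on every wild-type array. It read -8.67, -9.18 and -7.73 on the Foxa3-/- OVA arrays, against -3.99, -4.13 and -4.00 on the wild-type OVA arrays. It read -8.53 and -8.72 on the Foxa3-/- saline arrays, against -6.17, -5.97 and -5.97 on the wild-type saline arrays. Foxa3 was thus lower in Foxa3-/- lungs than in wild-type lungs after OVA (adjusted p 0.000363) and after saline (adjusted p 0.0328). The knockout side lies below background. The folds, 8.55 after OVA and 1.61 after saline, are therefore against the lowest signal well above background on the knockout arrays. They are not strict bounds for this probe. The adjusted p after saline went above 0.05 when any array but Foxa3-/- OVA 2 or 3 was left out, at most to 0.274 without Foxa3-/- saline 1. In wild-type lung Foxa3 was 1.99 ± 0.30 higher after OVA (adjusted p 0.00509).

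CXCR3 is a G protein-coupled receptor of activated T helper 1 cells, cytotoxic T cells and natural killer cells, and its ligands draw these cells into inflamed tissue, the lung among them. Interferon-gamma induces all the ligands: its receptor activates the kinases JAK1 and JAK2, and the signal then switches on target genes, Irf1 among them. Type I interferons act through a complex with STAT2 and IRF9 that binds the interferon-stimulated response element (ISRE), and Cxcl10 is also a known NF-kB target. In OVA models of allergic asthma the inflammation is usually described as T helper 2-driven, with interferon-gamma as the opposing cytokine.

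Among the promoters of Cxcl9, Cxcl10 and Cxcr3, only the Cxcl10 window holds ISRE and NF-kB matches, while each gene was higher after OVA. These promoters are shown for that reason. Each is the 250 bases before the gene's start in RefSeq (GRCm38.p6, minus strand, 5′ to 3′), and capitals mark ISRE and NF-kB matches.
Cxcl9, chr5:92328080-92328329: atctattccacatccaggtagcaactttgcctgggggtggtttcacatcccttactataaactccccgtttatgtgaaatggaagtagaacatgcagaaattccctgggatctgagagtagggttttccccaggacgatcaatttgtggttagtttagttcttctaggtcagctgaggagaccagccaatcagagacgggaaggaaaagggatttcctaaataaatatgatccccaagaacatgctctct
Cxcl10, chr5:92348890-92349139: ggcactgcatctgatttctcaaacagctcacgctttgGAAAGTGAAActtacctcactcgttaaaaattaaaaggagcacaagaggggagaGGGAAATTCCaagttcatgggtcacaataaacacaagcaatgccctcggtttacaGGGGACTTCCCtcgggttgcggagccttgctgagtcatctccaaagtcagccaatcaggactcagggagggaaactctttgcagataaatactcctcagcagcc
Cxcr3, chrX:101734148-101734397: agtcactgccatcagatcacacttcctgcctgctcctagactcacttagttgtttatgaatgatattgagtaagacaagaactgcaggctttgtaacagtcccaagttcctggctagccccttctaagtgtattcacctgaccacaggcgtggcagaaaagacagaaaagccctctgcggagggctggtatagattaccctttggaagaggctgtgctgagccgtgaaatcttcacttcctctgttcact

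In the Cxcl10 window the ISRE search (GAAA, any 2 bases, GAAA, on both strands) matched GAAAGTGAAA from -213 to -204, counted in bases before the gene's start. The NF-kB motif, a 10-letter consensus searched on both strands, matched GGGAAATTCC from -159 to -150. It also matched GGGGACTTCC from -104 to -95 and the overlapping GGGACTTCCC from -103 to -94, on both strands. An AP-1 motif (letters TGANTCA) lies at -74 to -68. Over the 32851 promoters of the same length, 2.98% held the ISRE letters, 7.25% the NF-kB motif, 6.75% the AP-1 letters and 0.164% (54 promoters) both ISRE and NF-kB. No ISRE or NF-kB match was found in the Cxcl9 or Cxcr3 window. None of the Cxcl9, Cxcl10 and Cxcr3 windows held the GAS letters of interferon-gamma signalling (TTCNNNGAA, in 7.02% of promoters), and the Cxcl9 window has the letters TATAAA (in 12.4% of promoters) at -195 to -190. A match is a description of letters and not a bound site, and these windows do not cover elements farther upstream. Cxcl11 has no entry in the promoter table.

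All member probes lie on the minus strand of mm7, the build of the array files. The ligand probes share 1 stretch of chromosome 5: Cxcl9 at chr5:92310412-92310471, Cxcl10 at chr5:92334002-92334061 and Cxcl11 at chr5:92348344-92348495. The Cxcr3 probe is at chrX:97058936-97058995. The Cxcl11 probe is printed because its 60 bases are laid over 152 bases of genome, with 92 bases skipped, which places it across a splice junction, and because Cxcl11 was the dimmest member.
Cxcl11 probe: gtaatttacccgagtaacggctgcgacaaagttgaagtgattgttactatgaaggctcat
The RefSeq gene table of the C57BL/6J reference (GRCm38.p6) lists Cxcl11 as a transcribed pseudogene and the other members as protein coding. The strain of these mice is not given in the sources used here, so a Cxcl11 value is an RNA level and says nothing of a protein.

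**Figure D1:**
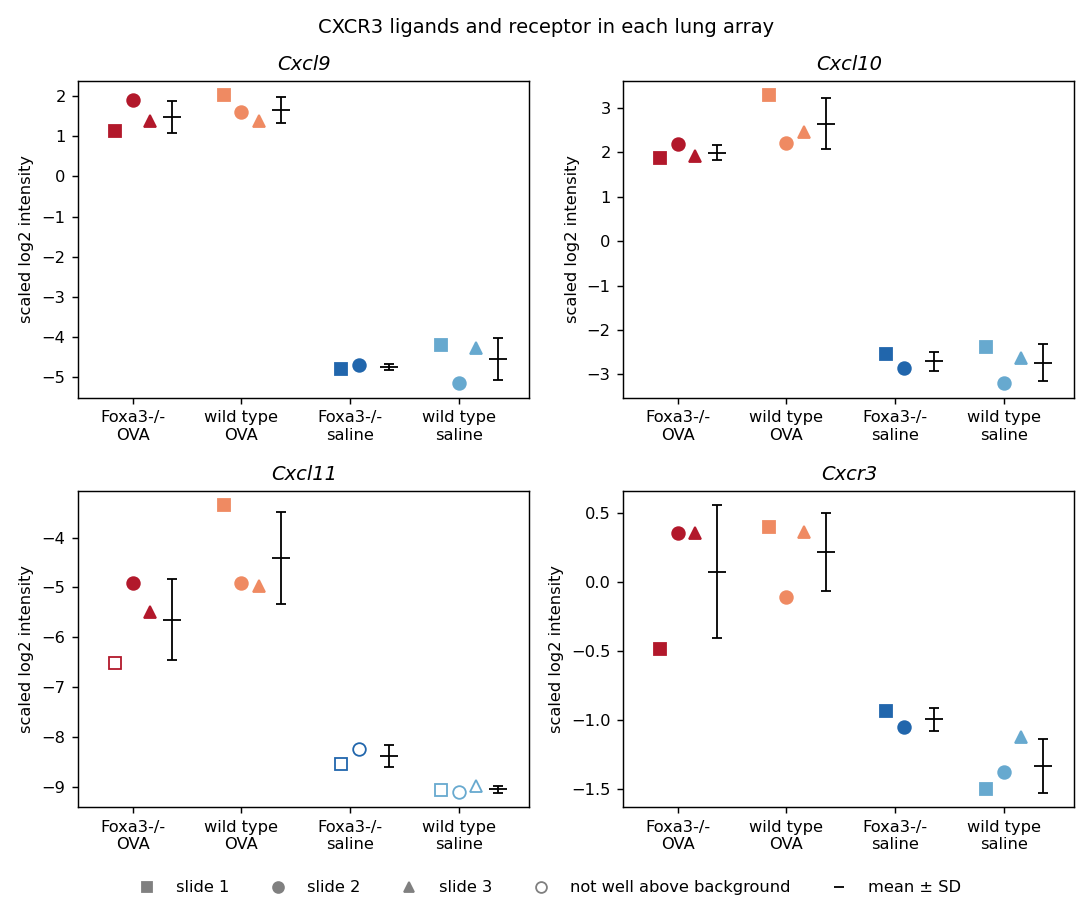
Scaled log2 intensity of each member on every array (vertical axis, log2 relative to the array's 75th percentile), by group, with marker shape for the slide, open markers for spots not well above background, and bars for mean ± SD. For each member, every OVA array lies above every saline array, and the Foxa3-/- and wild-type OVA arrays overlap except for Cxcl10.

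All 4 members were higher after OVA in both genotypes. Cxcl9 and Cxcl10 rose by 25.9- to 73.8-fold, and Cxcr3 rose by 2.10- to 2.93-fold. Cxcl11 rose out of the background on every OVA array but Foxa3-/- OVA 1. In Foxa3-/- lungs 4 of 4 members were called higher, where 6.17% of all genes were called higher and 8.12% were called in either direction. In wild-type lungs 4 of 4 were called higher, where 10.6% of all genes were called higher and 18.9% in either direction. Every OVA array lay above every saline array for 4 of 4 members in each genotype, as it did for 23.3% of all genes in Foxa3-/- lungs and 21.4% in wild-type lungs. Cxcl11 was well above background only on OVA arrays, so it entered the fit only through the groups where it is high. Its calls and lack of overlap are therefore no separate support. Cxcl9, Cxcl10 and Cxcr3 were well above background on every array. The median difference over all genes was -0.03 in Foxa3-/- lungs and 0.00 in wild-type lungs. Since lung tissue was measured in bulk, more cells of a type and more RNA per cell cannot be told apart in any of these rises.

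Cxcl9 encodes the ligand most tied to interferon-gamma. In Foxa3-/- lungs it read 1.13, 1.38 and 1.91 after OVA, against -4.68 and -4.79 after saline. The wild-type lungs read 1.59, 1.37 and 2.01 after OVA, against -4.20, -5.14 and -4.27 after saline. The OVA arrays of the genotypes overlap, and a wide gap separates each OVA array from each saline array. As plain intensity, the Foxa3-/- OVA spots gave 2598, 3664 and 5358, against 52.8 and 38.0 on the Foxa3-/- saline arrays. The wild-type OVA spots gave 2954, 3246 and 4620, against 77.3, 42.3 and 80.5 on the wild-type saline arrays, all of them well above background. Cxcl9 rose by 6.20 ± 0.33 in Foxa3-/- lungs (73.8-fold, 95% interval 5.46 to 6.95, adjusted p 0.000348). The wild-type rise was 6.20 ± 0.29 (73.3-fold, 95% interval 5.53 to 6.86, adjusted p 0.000124). Within slides 1 and 2 the Foxa3-/- rise was 5.91 and 6.59. Within slides 1, 2 and 3 the wild-type rise was 6.22, 6.73 and 5.64. Each slide thus gave the rise on its own.

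Cxcl10 encodes a ligand that both types of interferon and NF-kB induce, and its promoter window is the one above that holds an ISRE and NF-kB motifs. In Foxa3-/- lungs it read 1.87, 1.92 and 2.19 after OVA, against -2.86 and -2.55 after saline. Wild-type lungs gave 2.20, 2.47 and 3.29 after OVA, against -2.38, -3.20 and -2.64 after saline. Here the 3 Foxa3-/- OVA arrays lie just below the 3 wild-type OVA arrays (2.19 against 2.20 at the nearest), and the saline arrays overlap. Cxcl10 rose by 4.69 ± 0.33 in Foxa3-/- lungs (25.9-fold, 95% interval 3.95 to 5.44, adjusted p 0.000866). The wild-type rise was 5.39 ± 0.29 (41.9-fold, 95% interval 4.72 to 6.06, adjusted p 0.000153). The rise within slides was 4.42 and 5.04 in Foxa3-/- lungs on slides 1 and 2, and 5.66, 5.40 and 5.11 in wild-type lungs on slides 1, 2 and 3.

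Where it makes protein, Cxcl11 encodes the ligand described as binding CXCR3 most tightly, and the reference lists it as a transcribed pseudogene. In Foxa3-/- lungs it read -6.52, -5.49 and -4.92 after OVA, against -8.23 and -8.54 after saline. In wild-type lungs it read -4.91, -4.96 and -3.35 after OVA, against -9.06, -9.11 and -8.98 after saline. The spot was well above background on 2 of 3 Foxa3-/- OVA arrays and 3 of 3 wild-type OVA arrays, and on none of the 2 Foxa3-/- saline or 3 wild-type saline arrays. The rise is therefore given against the lowest signal of any probe well above background on each saline array. That level is not this spot's own limit. On Foxa3-/- OVA 1 the lowest such signal was -6.91, under the Cxcl11 spot, which was not well above background. Neither fold is therefore a strict lower bound. Against that level Cxcl11 was 2.11-fold higher in Foxa3-/- OVA lungs (adjusted p 0.0206) and 7.15-fold higher in wild-type OVA lungs (adjusted p 0.00135). The fitted differences behind these p-values were 2.74 ± 0.54 in Foxa3-/- lungs and 4.64 ± 0.48 in wild-type lungs. Before background subtraction the spots gave a mean intensity of 77.5, 78.6 and 92.3 on Foxa3-/- OVA arrays, against 64.8 and 54.4 on Foxa3-/- saline arrays. They gave 79.7, 89.7 and 145 on wild-type OVA arrays, against 54.4, 55.5 and 53.4 on wild-type saline arrays. In the authors' deposited value table, which follows the unsubtracted signal, the fitted Cxcl11 difference was 0.48 in Foxa3-/- lungs (adjusted p 0.147) and 0.93 in wild-type lungs (adjusted p 0.0100). The Foxa3-/- call also went above 0.05 without Foxa3-/- saline 1 (0.119), Foxa3-/- saline 2 (0.130) or Foxa3-/- OVA 3 (0.0687), and with slide as a block (0.0569).

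Cxcr3 encodes the receptor of all the ligands. In Foxa3-/- lungs it read -0.48, 0.36 and 0.36 after OVA, against -1.05 and -0.93 after saline. In wild-type lungs it read -0.10, 0.37 and 0.40 after OVA, against -1.50, -1.38 and -1.12 after saline. Foxa3-/- OVA 1 is the lowest OVA array, yet it lies above every saline array. Cxcr3 rose by 1.07 ± 0.27 in Foxa3-/- lungs (2.10-fold, 95% interval 0.46 to 1.68, adjusted p 0.0455). The wild-type rise was 1.55 ± 0.24 (2.93-fold, 95% interval 1.01 to 2.10, adjusted p 0.00578). Within slides 1 and 2 the Foxa3-/- rise was 0.45 and 1.41, and within slides 1, 2 and 3 the wild-type rise was 1.90, 1.27 and 1.49. The Foxa3-/- call is close to the threshold. Its adjusted p went above 0.05 without any of 9 of the 11 arrays (all but wild-type OVA 1 and Foxa3-/- OVA 1), at most to 0.212 without Foxa3-/- saline 1, and to 0.0904 with slide as a block.

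**Figure D2:**
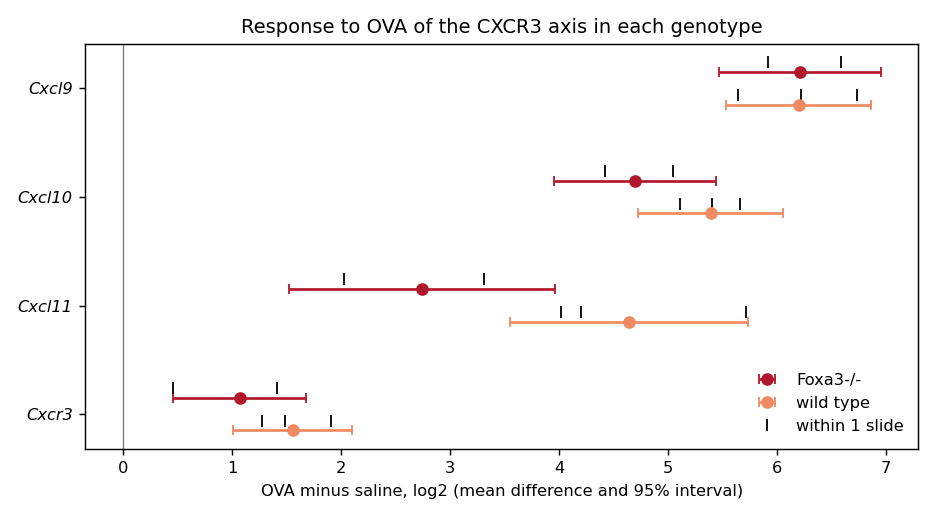
Log2 difference between OVA and saline (horizontal axis) for each member, Foxa3-/- above wild type, with the mean difference, its 95% interval and ticks for the difference within each slide. Cxcl9 has almost the same rise in both genotypes (6.20 and 6.20), whereas the Foxa3-/- estimates of Cxcl10, Cxcl11 and Cxcr3 lie left of the wild-type ones; the Cxcl11 points are fitted values against spots below background and not measured folds.

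The planned normexp background correction gave 0 called genes of 21874 in either OVA comparison by limma. It thus ended the calls of all 4 members in both genotypes. Under it Cxcl10 still differed by 4.25 in Foxa3-/- lungs (adjusted p 0.0737) and 4.10 in wild-type lungs (adjusted p 0.0537), and the adjusted p of Cxcl9 was 0.0997 in Foxa3-/- lungs and 0.0955 in wild-type lungs. With 12 spots of very bright local background left out, the same correction called 4 of 4 members in wild-type lungs, where it called 5343 of 21874 genes. In Foxa3-/- lungs it called all members but Cxcl11, where it called 2234 of 21874 genes. Without the 4 arrays of slide 1, Cxcl9 and Cxcl10 were called in both genotypes and Cxcl11 in wild-type lungs, where 13 genes in Foxa3-/- lungs and 27 in wild-type lungs were called in all. Cxcr3 was not called in that fit, with adjusted p 0.212 in Foxa3-/- lungs and 0.125 in wild-type lungs. Without slide 1, or without either Foxa3-/- saline array, the Foxa3-/- saline group is 1 array, which the fit takes to vary like the other groups, so these values check little of that group's own spread.

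The comparison of genotypes after OVA asks whether the members' levels differ without Foxa3. Whether their response to OVA differs is tested below as the difference of the OVA effects. After OVA none of the 4 members was called between Foxa3-/- and wild-type lungs by limma, where 0.206% of all genes (45) were called. At an unadjusted limma p under 0.05 the count was 1 of 4 members, beside 4.96% of all genes. Cxcl9 differed by -0.19 ± 0.29 (95% interval -0.85 to 0.48), with means of 1.47 ± 0.40 in Foxa3-/- OVA lungs and 1.66 ± 0.33 in wild-type OVA lungs (SD, n = 3 each). Cxcl10 differed by -0.66 ± 0.29 (95% interval -1.33 to 0.01), with means of 1.99 ± 0.17 in Foxa3-/- OVA lungs and 2.65 ± 0.56 in wild-type OVA lungs. Its groups do not overlap, as is so for 4.44% of all genes in that direction. Cxcl11 differed by -1.24 ± 0.48 (95% interval -2.33 to -0.14; unadjusted limma p 0.0307, adjusted p 0.883), with means of -5.64 ± 0.81 in Foxa3-/- OVA lungs and -4.41 ± 0.92 in wild-type OVA lungs, and its groups overlap. Cxcr3 differed by -0.14 ± 0.24 (95% interval -0.69 to 0.40), with means of 0.08 ± 0.48 in Foxa3-/- OVA lungs and 0.22 ± 0.28 in wild-type OVA lungs. These intervals leave room for differences in either direction for Cxcl9 and Cxcr3, and the comparison does not show that the genotypes are alike.

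The genotype differences of Cxcl9, Cxcl10 and Cxcr3 after OVA were furthest below 0 on slide 1. On slide 1 Foxa3-/- minus wild type was -0.89 for Cxcl9, -1.42 for Cxcl10 and -0.89 for Cxcr3. For Cxcl11 it was -3.17, from a Foxa3-/- OVA 1 spot that was not well above background, so the size of that value is not measured. On slide 2 it was 0.32 for Cxcl9, -0.02 for Cxcl10, -0.01 for Cxcl11 and 0.46 for Cxcr3. On slide 3 it was 0.02 for Cxcl9, -0.55 for Cxcl10, -0.53 for Cxcl11 and -0.01 for Cxcr3. Slide 1 holds Foxa3-/- OVA 1, the lowest Foxa3-/- OVA array for each member, and wild-type OVA 3, the highest wild-type OVA array for each member. Without slide 1 the differences were 0.17 for Cxcl9, -0.28 for Cxcl10, -0.27 for Cxcl11 and 0.23 for Cxcr3.

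**Figure D3:**
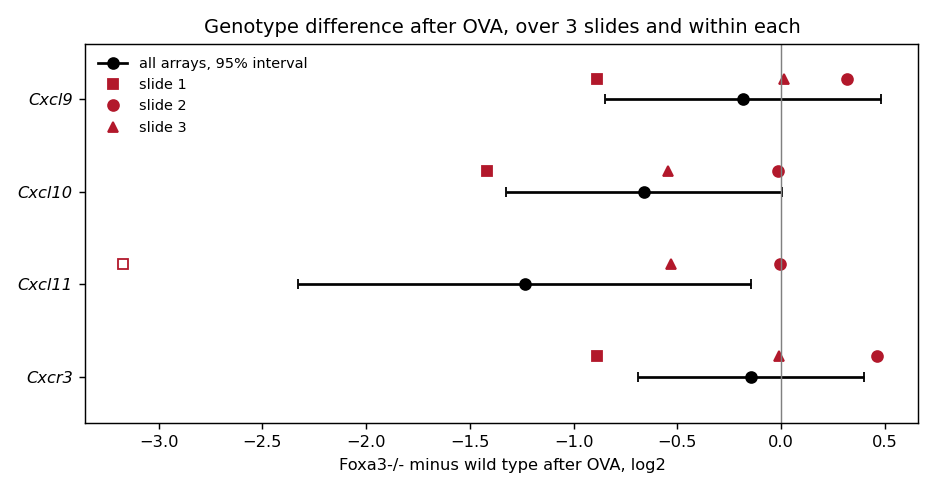
Foxa3-/- minus wild type after OVA (horizontal axis, log2) for each member, over all arrays with its 95% interval (black) and within each slide (red). The slide 1 value lies left of the end of the interval for each member (-0.89 to -3.17), while slides 2 and 3 lie between -0.55 and 0.46; the open marker is the Cxcl11 value of slide 1, whose Foxa3-/- spot was not well above background.

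After saline none of the 4 members was called between Foxa3-/- and wild-type lungs, where 0.096% of all genes (21) were called, and at an unadjusted limma p under 0.05 the count was 0 of 4, beside 3.25% of all genes. Cxcl9 averaged -4.73 ± 0.08 in Foxa3-/- saline lungs (SD, n = 2) and -4.54 ± 0.52 in wild-type saline lungs (SD, n = 3), a difference of -0.19 ± 0.33. Cxcl10 averaged -2.70 ± 0.22 in Foxa3-/- saline lungs and -2.74 ± 0.42 in wild-type saline lungs, a difference of 0.03 ± 0.33. Cxcr3 averaged -0.99 ± 0.08 in Foxa3-/- saline lungs and -1.33 ± 0.19 in wild-type saline lungs, a difference of 0.34 ± 0.27 with no overlap between the groups, as 11.8% of all genes show in that direction. Within slides 1 and 2 this Cxcr3 difference was 0.56 and 0.33. Cxcl11 was below background in both saline groups and has no fold. Ordered by mean, each ligand and the receptor read highest in wild-type OVA lungs, then Foxa3-/- OVA lungs, with both saline groups far below. For Cxcl9, Cxcl10 and Cxcr3 the 95% intervals of the step between the OVA groups and of that between the saline groups include 0.

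The difference of the OVA effects, Foxa3-/- minus wild type, was tested with an interaction term, which uses the same arrays as the comparisons above. None of the 4 members was called, where 0.00457% of all genes (1) were called, and the count at an unadjusted limma p under 0.05 was 1 of 4, beside 2.59% of all genes. The difference was 0.01 ± 0.44 for Cxcl9 (95% interval -0.99 to 1.01), -0.69 ± 0.44 for Cxcl10 (-1.69 to 0.30), and -0.48 ± 0.36 for Cxcr3 (-1.30 to 0.33). For Cxcl11 it was -1.90 ± 0.72 (95% interval -3.54 to -0.26; unadjusted limma p 0.0276, adjusted p 1.00), from fitted values below background. Within slides 1 and 2 the Cxcl11 value was -3.69 and -0.88, the Cxcl10 value -1.24 and -0.36, the Cxcl9 value -0.30 and -0.15, and the Cxcr3 value -1.45 and 0.14. With 2 Foxa3-/- saline arrays, a smaller OVA effect on Cxcl10, Cxcl11 or Cxcr3 in Foxa3-/- lungs was not resolved.

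Genes upstream of the ligands were taken as a list of interferon-gamma and interleukin-12 signalling. Of its 17 measured genes 6 rose and 0 fell after OVA in Foxa3-/- lungs (median 0.44), and 9 rose and 0 fell in wild-type lungs (median 0.70). Over all genes 6.17% were called higher in Foxa3-/- lungs and 10.6% in wild-type lungs. Ifng itself, the inducing cytokine, read -0.85, -1.09 and -0.85 in Foxa3-/- OVA lungs, against -2.55 and -2.45 in Foxa3-/- saline lungs. It read -0.97, -0.93 and -0.41 in wild-type OVA lungs, against -3.15, -1.43 and -2.14 in wild-type saline lungs. The wild-type saline arrays spread widely, while the OVA arrays lie close together. Ifng rose by 1.58 ± 0.41 in Foxa3-/- lungs (adjusted p 0.0495) and by 1.47 ± 0.37 in wild-type lungs (adjusted p 0.0287). With slide as a block neither Ifng call was kept, and leaving out 1 array ended the Foxa3-/- call for all but wild-type OVA 1 and wild-type saline 1 and 2 (at most 0.214, without Foxa3-/- saline 1). The wild-type call ended without wild-type OVA 2, wild-type OVA 3 or wild-type saline 3 (at most 0.0977).

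Il12rb1, a chain of the interleukin-12 receptor, rose by 1.72 ± 0.28 in Foxa3-/- lungs (adjusted p 0.0102) and by 2.11 ± 0.25 in wild-type lungs (adjusted p 0.00247). Irf1, which binds interferon response elements, rose by 0.44 ± 0.10 in wild-type lungs (adjusted p 0.0213) and differed by 0.31 ± 0.11 in Foxa3-/- lungs (adjusted p 0.104). Stat4, which relays interleukin-12, rose by 1.04 ± 0.15 in wild-type lungs (adjusted p 0.00440) and differed by 0.44 ± 0.17 in Foxa3-/- lungs (adjusted p 0.117). Leaving out 1 array ended the Il12rb1 call in Foxa3-/- lungs for both Foxa3-/- saline arrays (at most 0.108), and the Irf1 call in wild-type lungs for wild-type OVA 3 and wild-type saline 2 and 3 (at most 0.0824). The Foxa3-/- count of the list was 0 without either Foxa3-/- saline array, 1 without wild-type saline 3, Foxa3-/- OVA 1 or Foxa3-/- OVA 3, and 2 without wild-type OVA 3 or wild-type saline 2. The wild-type count was 5 without wild-type OVA 3. After OVA, Foxa3-/- minus wild type had 0 calls by limma in this list (median -0.14). It had 2 of 17 genes at an unadjusted p under 0.05, beside 4.96% of all genes.

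Over all genes 6.17% were called higher after OVA in Foxa3-/- lungs and 10.6% in wild-type lungs. Among 14 genes of type I interferon signalling, 1 rose after OVA in Foxa3-/- lungs (median 0.24) and 7 rose in wild-type lungs (median 0.66), with 0 falls in either. Irf7, the regulator that amplifies type I interferon production, was the one that rose in both. It read 0.60, 0.11 and 0.92 in Foxa3-/- OVA lungs, against -0.60 and -0.72 in Foxa3-/- saline lungs. Wild-type lungs gave 2.84, 2.64 and 3.48 after OVA, against -0.46, -0.57 and -0.32 after saline. Irf7 thus rose by 1.20 ± 0.28 in Foxa3-/- lungs (adjusted p 0.0354) and by 3.44 ± 0.25 in wild-type lungs (adjusted p 0.000509). Between genotypes after OVA, 2 of the 14 genes were called lower in Foxa3-/- lungs, where 0.151% of all genes were called lower, and the list median was -0.52 beside 0.02 over all genes. They were Irf7 (-2.44 ± 0.25, adjusted p 0.00755) and Irf9 (-0.65 ± 0.09, adjusted p 0.0382), the DNA-binding subunit of the type I interferon complex. The interaction term for Irf7 was -2.23 ± 0.37, with adjusted p 0.823. The Irf9 call ended when any 1 array was left out (adjusted p 0.0655 to 0.191), which left a count of 1 in each such fit. The rise of Irf7 in Foxa3-/- lungs, and with it the list's count of 1, ended without any saline array, Foxa3-/- OVA 1 or Foxa3-/- OVA 3 (at most 0.177), and the count was 3 without Foxa3-/- OVA 2. Irf7 was called lower in Foxa3-/- lungs after OVA with any 1 array left out, with differences of -2.63 to -2.20, but not without slide 1 (adjusted p 0.416).

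Of 17 other genes that interferon-gamma induces, 15 rose after OVA in Foxa3-/- lungs (median 1.02) and 16 rose in wild-type lungs (median 1.54), with 0 falls. Beside these counts, 6.17% of all genes were called higher in Foxa3-/- lungs and 10.6% in wild-type lungs. Ubd, a ubiquitin-like modifier, rose by 7.03 ± 0.73 in Foxa3-/- lungs (adjusted p 0.00273) and by 6.50 ± 0.65 in wild-type lungs (adjusted p 0.00128). Ido1, which breaks down tryptophan, rose by 1.26 in Foxa3-/- lungs (adjusted p 0.00677) and by 1.69 in wild-type lungs (adjusted p 0.00128). Irgm1, a GTPase of cell-autonomous defence, rose by 1.04 in Foxa3-/- lungs (adjusted p 0.0176) and by 1.77 in wild-type lungs (adjusted p 0.00128). Gbp3, a guanylate-binding protein, rose by 1.47 in wild-type lungs (adjusted p 0.00424) and differed by 0.75 in Foxa3-/- lungs (adjusted p 0.0748). The remaining gene with no call in either genotype was Nos2. Between genotypes after OVA 0 of 17 were called by limma and 8 had an unadjusted p under 0.05, beside 4.96% of all genes. The list median was -0.38, with 2 values above 0. The wild-type count stayed at 16 with any 1 array left out and was 1 without slide 1. The Foxa3-/- count was 1 without Foxa3-/- saline 1, 3 without Foxa3-/- saline 2 and 4 without Foxa3-/- OVA 3, where 68, 404 and 543 of all genes were called. The Foxa3-/- call of Ido1 ended without Foxa3-/- saline 1 (0.0731), that of Irgm1 without Foxa3-/- OVA 3 or either Foxa3-/- saline array (at most 0.119), and the Foxa3-/- rise of Ubd was 7.65 without Foxa3-/- OVA 2 and 6.37 without Foxa3-/- OVA 3.

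In the list of ligand handling and receptor signalling, 2 of 13 rose in Foxa3-/- lungs (median 0.18), and 3 rose and 1 fell in wild-type lungs (median 0.21). The shares called higher over all genes were 6.17% in Foxa3-/- lungs and 10.6% in wild-type lungs. Ackr1, an atypical receptor of venular endothelium and red cells that binds inflammatory chemokines without signalling, read -1.22, -1.62 and -0.81 in Foxa3-/- OVA lungs, against -4.85 and -4.21 in Foxa3-/- saline lungs. Wild-type lungs gave -1.58, -0.39 and -0.73 after OVA, against -4.17, -4.66 and -4.04 after saline. Ackr1 rose by 3.31 ± 0.38 in Foxa3-/- lungs (adjusted p 0.00377) and by 3.39 ± 0.34 in wild-type lungs (adjusted p 0.00129). Arrb2, a beta-arrestin that ends receptor signalling, rose by 1.01 in wild-type lungs (adjusted p 0.0230) and differed by 0.78 in Foxa3-/- lungs (adjusted p 0.0897). The wild-type count was 2 without wild-type saline 1, wild-type saline 2, wild-type OVA 2 or wild-type OVA 3. The Foxa3-/- count was 0 without Foxa3-/- saline 1, 1 without Foxa3-/- saline 2 and 5 without Foxa3-/- OVA 2. The Foxa3-/- call of Ackr1 ended without Foxa3-/- saline 1 (0.0517), and the wild-type call of Arrb2 without the same 4 wild-type arrays (at most 0.0830). After OVA, Foxa3-/- minus wild type had 0 of 13 calls by limma (median -0.02), and 0 genes had an unadjusted p under 0.05.

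For genes of the cells that carry CXCR3, the T helper 1, cytotoxic and natural killer cells, 1 of 18 rose in Foxa3-/- lungs (Cd44, median of the list 0.24) and 12 of 18 rose in wild-type lungs (median 0.83), with 0 falls. The share of all genes called higher was 6.17% in Foxa3-/- lungs and 10.6% in wild-type lungs. Il2rb, a chain of the interleukin-2 and interleukin-15 receptors, rose by 1.60 in wild-type lungs (adjusted p 0.00748) and differed by 0.77 in Foxa3-/- lungs (adjusted p 0.122). Cd3d, of the T cell receptor complex, rose by 1.37 in wild-type lungs (adjusted p 0.00908) and differed by 0.82 in Foxa3-/- lungs (adjusted p 0.0855). Cd8a, of cytotoxic T cells, rose by 1.71 in wild-type lungs (adjusted p 0.0109) and differed by 0.93 in Foxa3-/- lungs (adjusted p 0.115). Cd69, an early activation marker, rose by 1.21 in wild-type lungs (adjusted p 0.0131) and differed by 0.19 in Foxa3-/- lungs (adjusted p 0.685). The direct comparison of genotypes after OVA called 0 of these 18 genes by limma (median -0.33), with 7 at an unadjusted p under 0.05, beside 4.96% of all genes. The interaction term called 0, with 5 at an unadjusted p under 0.05, beside 2.59% of all genes. After saline, 14 of the 18 read higher in Foxa3-/- than in wild-type lungs (median 0.19). Of the 18, 0 were called by limma and 1 had an unadjusted p under 0.05, beside 3.25% of all genes. Cd3d averaged 1.29 ± 0.29 in Foxa3-/- OVA lungs and 1.28 ± 0.25 in wild-type OVA lungs (SD, n = 3 each), but 0.46 ± 0.05 in Foxa3-/- saline lungs (SD, n = 2) and -0.10 ± 0.45 in wild-type saline lungs (SD, n = 3). Leaving out wild-type OVA 2 or wild-type saline 1 gave a wild-type count of 5, leaving out wild-type saline 2 gave 4 and leaving out wild-type OVA 3 gave 3 and ended the Cd69 call (0.0545). The Foxa3-/- count was 0 without either Foxa3-/- saline array, Foxa3-/- OVA 1 or 3, wild-type OVA 3, or wild-type saline 1 or 2. It was 2 without wild-type OVA 1 or wild-type saline 3, and 3 without Foxa3-/- OVA 2.

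**Figure D4:**
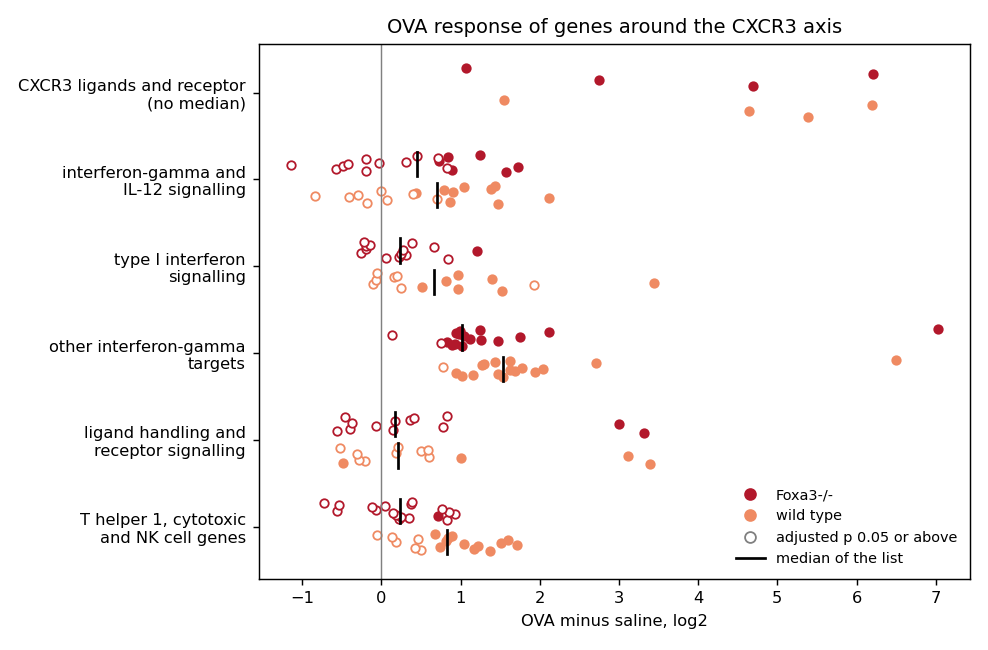
Log2 difference between OVA and saline (horizontal axis) of each gene in the 6 lists, Foxa3-/- above wild type in each row, with filled points for adjusted p under 0.05 and a black line for the list median. No median is drawn for the 4 members, of which Cxcl11 is a fitted value against spots below background; the 17 interferon-gamma targets all lie to the right of 0, with Ubd at 7.03 in Foxa3-/- lungs and 6.50 in wild-type lungs.

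Marker levels were summed for each cell type on the linear scale, in units of the array's 75th percentile. All 10 lung epithelial markers were well above background on every array, with sums of 789 to 934 in Foxa3-/- OVA, 818 to 1058 in wild-type OVA, 882 to 1001 in Foxa3-/- saline and 736 to 786 in wild-type saline lungs. The 8 T cell markers summed to 8.45 to 11.3 in Foxa3-/- OVA lungs, against 5.68 to 6.17 in Foxa3-/- saline lungs. They summed to 8.38 to 11.3 in wild-type OVA lungs, against 3.13 to 5.49 in wild-type saline lungs. Thus the T cell sum was higher on every OVA array than on every saline array of the same genotype. Such a gap was seen for 23.3% of all genes in Foxa3-/- lungs and 21.4% in wild-type lungs. A sum is weighted towards the brightest markers. The OVA difference was above 0 for 8 of 8 markers in each genotype, though only 1 of 8 in Foxa3-/- lungs and 6 of 8 in wild-type lungs were called. Over all genes 6.17% were called higher in Foxa3-/- lungs and 10.6% in wild-type lungs, and 8.12% and 18.9% in either direction. Between genotypes the median difference of the T cell markers was -0.02 after OVA, with 0 called by limma and 0 at an unadjusted p under 0.05. After saline 8 of 8 read higher in Foxa3-/- lungs (median 0.48), with 0 called by limma. At an unadjusted limma p under 0.05 the count was 2 of 8, beside 3.25% of all genes. The 6 natural killer cell markers summed to 2.69 to 3.78 in Foxa3-/- OVA lungs, against 4.46 to 5.35 in wild-type OVA lungs, and 0 of 6 were called by limma in either OVA comparison. Their OVA difference was above 0 for 0 of 6 in Foxa3-/- lungs (median -0.55) and for 5 of 6 in wild-type lungs (median 0.16). At an unadjusted limma p under 0.05, 5 of 6 were lower in Foxa3-/- OVA than in wild-type OVA lungs, beside 4.96% of all genes in either direction. Macrophage and monocyte markers (9 of 10 measured) summed to 177 to 201 in Foxa3-/- OVA lungs, against 163 to 221 in Foxa3-/- saline lungs, with 4 of 9 called higher. They summed to 227 to 243 in wild-type OVA lungs, against 146 to 173 in wild-type saline lungs, with 7 of 9 called higher. The 7 dendritic cell markers summed to 101 to 131 in Foxa3-/- OVA lungs, against 48.3 to 48.5 in Foxa3-/- saline lungs, and to 101 to 147 in wild-type OVA lungs, against 55.2 to 59.0 in wild-type saline lungs. In each genotype 3 of 7 were called higher (H2-Ab1, Itgax and Flt3), and the list median was 0.09 in Foxa3-/- lungs and 0.05 in wild-type lungs, so the sums do not describe the other 4 (Zbtb46, Xcr1, Clec9a and Cd209a). Plasmacytoid dendritic cell markers summed to 30.4 to 40.3 in Foxa3-/- OVA lungs and 54.6 to 73.8 in wild-type OVA lungs. Between these groups 0 of 5 were called by limma and 3 had an unadjusted p under 0.05, beside 4.96% of all genes. The 6 B cell markers summed to a median of 12.5 and at most 13.3 in Foxa3-/- OVA lungs and to 17.9 to 22.4 in wild-type OVA lungs, against 10.1 to 17.5 in Foxa3-/- saline and 6.13 to 18.2 in wild-type saline lungs. Their median OVA difference was -0.09 in Foxa3-/- lungs, with 6 of 6 values below 0, and 0.75 in wild-type lungs, with 6 of 6 above 0. Their median between genotypes after OVA was -0.71, and 0 of 6 were called by limma or had an unadjusted p under 0.05 in any of these comparisons. Endothelial markers were called lower after OVA for 1 of 6 in Foxa3-/- lungs (median -0.58) and 4 of 6 in wild-type lungs (median -0.62), with 0 called between genotypes by limma and 0 at an unadjusted p under 0.05. Of 6 heart muscle markers, 0 were called after OVA in Foxa3-/- lungs by limma (0 at an unadjusted p under 0.05, median 0.13) and 1 was called lower in wild-type lungs (median -0.79). After saline the heart muscle markers summed to 21.1 to 25.8 in Foxa3-/- lungs, against 34.3 to 48.5 in wild-type lungs (median difference -0.96). Of them 0 were called by limma and 6 of 6 had an unadjusted p under 0.05, beside 3.25% of all genes. These cell types include sources of the ligands and carriers of the receptor, and their part in the members' values was not tested.

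The genes nearest to each member in profile were found by the root mean square difference of log2 values, each gene centred on its own mean over the 11 arrays. For Cxcl9 they were the acute-phase gene Saa3 (0.52), Cxcl10 (0.63) and Ubd (0.72), where the median over all genes was 3.11. For Cxcl10 they were the monocyte attractant Ccl7 (0.54), the B cell attractant Cxcl13 (0.57) and the acute-phase gene Saa1 (0.58), with a median of 2.56 over all genes. Cxcl9 was the gene at rank 7 from Cxcl10. The Cxcl11 spot was not well above background on any saline array or on Foxa3-/- OVA 1, so its distances and ranks rest partly on background values. For Cxcl11 they were Zbp1 (0.68), a sensor of Z-form nucleic acid, the monocyte attractant Ccl2 (0.69) and Calhm6 (0.71), with a median of 2.03 over all genes. Cxcl10 was at rank 21 from Cxcl11. For Cxcr3 they were Tnfrsf11a (0.17), Cybb (0.17), a subunit of the phagocyte NADPH oxidase, and Tnfrsf18 (0.18), which encodes GITR, a receptor found on T cells. The median over all genes was 0.79. Cxcr3 was at rank 721 from Cxcl9 and at rank 717 from Cxcl10. Counted from Cxcr3, Cxcl9 was at rank 21716 and Cxcl10 at rank 21633, so the receptor's profile was not near theirs. All 11 arrays share the split by challenge, so a near profile mostly means a similar OVA effect. The OVA difference of Saa3 was 5.90 in Foxa3-/- lungs and 6.31 in wild-type lungs, that of Ccl7 4.80 in Foxa3-/- lungs and 5.30 in wild-type lungs, and that of Cybb 1.05 in Foxa3-/- lungs and 1.48 in wild-type lungs. Zbp1 rose by 2.27 ± 0.36 in Foxa3-/- lungs (adjusted p 0.00890) and 3.48 ± 0.32 in wild-type lungs (adjusted p 0.00113), and differed by -1.10 ± 0.32 between genotypes after OVA (adjusted p 0.525). Its Foxa3-/- call ended without either Foxa3-/- saline array (at most 0.0893).

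The genes around the ligands on chromosome 5 differed far less after OVA. In gene order Uso1, Ppef2, Naaa and Sdad1 come before Cxcl9, Art3 lies between Cxcl9 and Cxcl10, and Nup54, Scarb2, Fam47e, Stbd1 and Ccdc158 follow Cxcl11. Art3, between the ligands, differed by -0.59 in Foxa3-/- lungs and -0.55 in wild-type lungs, with no call (adjusted p 0.120 and 0.0809). Of the 10 neighbours, Naaa was called higher in both genotypes (0.88 in Foxa3-/- lungs, adjusted p 0.00899, and 0.75 in wild-type lungs, adjusted p 0.00724). Sdad1 was called higher in wild-type lungs (0.54, adjusted p 0.0204), with 0.31 in Foxa3-/- lungs (adjusted p 0.159). The remaining 8 were called in neither, with differences between -0.59 and 0.89.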

How the data were processed

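Total RNA of 11 mouse lung samples was labelled with Cy3 and hybridised to one-colour Agilent arrays. Per the file headers, the authors' scanner files give for each spot a background-subtracted, detrended intensity from Feature Extraction 9.5.1.1 (9.1 in the submitters' processing notes). The deposited value table holds log2 values with column medians of 7.669 to 7.674, whose ranks follow the unsubtracted signal (rank correlation 0.9991 to 0.9996). Its normalization is not given in the sources used here, and it served as an alternative. Each array has 43379 spots for 41174 probes other than controls.

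Here log2 intensities were scaled by subtracting the array's 75th percentile, and uneven spots (1 to 97 per array) were left out. A probe was kept if it was well above background on 2 or more of the 11 arrays (32946 probes), and the brightest probe stood for its gene (21874 genes). Names came from a GRCm38.p6 RefSeq table: 22951 probes by accession, 6659 by symbol, 3109 by synonym and 8455 as in the file. The fit was made with limma 3.58.1 in R 4.3.3, with a mean for each of the 4 groups over all 11 arrays, two-sided, with Benjamini-Hochberg adjustment over all genes. Against a group below background, the fold is to the lowest signal well above background. The fit, but not this fold, was checked on simulated data without slide effects. There, for Foxa3-/- minus wild type after OVA, 50.7% of genes changed 2-fold and 23.9% of those changed 1.5-fold were called. Array number limits the precision, and intervals are 95%.

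Members and gene lists were chosen with earlier results of these data known. Genes named are the members, Foxa3, Ifng and Irf1, in each list up to 3 with the smallest p for OVA in wild type and up to 2 for the difference of the OVA effects, and the 3 nearest profiles of each member. Chromosome 5 neighbours, Cd44 and Nos2 fall outside that rule; Cd44 and Nos2 were named after their values were seen. Some genes under that rule are not reported here. Samples were grouped as labelled. Alternatives were background correction (normexp, offset 50, with and without spots of bright local background), median and quantile scaling, other ways to filter and summarise probes, array weights, a trended robust prior, fits of only the groups compared, slide or replicate number as a block, the authors' table, each array left out, and slide 1 left out.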

Additional observations from a re-analysis of the deposited data

How the results depend on the processing

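OVA in Foxa3-/- lungs called 1777 genes, 0 with normexp, 428 with only the groups compared and 826 with slide as a block. Of 4 members it called 4, and 0 with normexp, 2 with only the groups compared and 2 with slide as a block. With 1 array left out at a time this count was 2 to 4, with 2 without Foxa3-/- saline 1, Foxa3-/- saline 2 or Foxa3-/- OVA 3. OVA in wild-type lungs called 4, and 0 with normexp. With replicate number as a block the count was 4 in each OVA comparison and 0 in the other 3, and the other 3 gave 0 under every alternative run. Same-numbered samples had deviations correlated at -0.405 to 0.0228, so replicate numbers do not pair the samples. Over the members, 74 of 100 alternative values for OVA in Foxa3-/- lungs and 95 of 100 in wild-type lungs kept direction and call. Under normexp Cxcl11 differed by 0.29 in Foxa3-/- lungs and 0.82 in wild-type lungs. Signs turned only for differences with no call. For Cxcl9, Foxa3-/- minus wild type was 0.17 after OVA without slide 1, and after saline 0.010 with normexp without bright local background, 0.011 with array weights and 0.027 without slide 1. Its difference of OVA effects was -0.20 with normexp without bright local background, -0.011 with quantile scaling, -0.40 with array weights, -0.17 with the replicate block, -0.14 in the authors' table and -0.21 to 0.31 with 1 array left out. For Cxcl10, Foxa3-/- minus wild type after saline was -0.67 with normexp and -0.20 to 0.21 with 1 array left out, and the difference of OVA effects 0.15 with normexp. For Cxcl11, Foxa3-/- minus wild type after saline was -0.92 with normexp. For Cxcr3, Foxa3-/- minus wild type after OVA was 0.23 without slide 1 and -0.31 to 0.13 with 1 array left out, and the difference of OVA effects 0.028 without slide 1. The causes were not tested. Cxcl11 lies near background, which limits its values. Only the groups compared gives no difference of OVA effects. Over all genes, OVA called 1777 in Foxa3-/- lungs (0 with normexp to 3395 with array weights) and 4134 in wild-type lungs (0 with normexp to 8981 with array weights), and without slide 1 it called 13 in Foxa3-/- lungs and 27 in wild-type lungs. With 1 array left out these counts were 68 (without Foxa3-/- saline 1) to 3311 (without Foxa3-/- OVA 2) in Foxa3-/- lungs and 1008 (without wild-type OVA 3) to 6298 (without wild-type OVA 1) in wild-type lungs. Foxa3-/- minus wild type called 45 after OVA (1 with normexp or without slide 1, 95 in the authors' table) and 21 after saline (0 with normexp or without slide 1, 54 with array weights).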
